A study of Homo sapiens with 27 samples.

Results

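The genes described here are a module of 39 genes of the hypoxia response and glycolysis, measured as messenger RNA in MCF10DCIS.com cells that had received calcium oxalate crystals. The members were chosen by symbol, as named enzymes of glycolysis and well-known targets or regulators of the hypoxia-inducible factor. They make up 39 of the 60683 genes in the files, and each symbol was found. A total of 16173 genes passed the filter on low counts, and 38 of the members were among them. SLC2A3, a neuronal-type glucose transporter, was the exception. It had 0 to 4 counts in every library but TN B, which held 249. By role, 16 members are glycolytic enzymes and 23 are other hypoxia genes.

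Hypoxia-inducible factor (HIF) pairs an oxygen-regulated alpha subunit, such as the product of HIF1A, with a stable beta subunit. When oxygen is plentiful, prolyl hydroxylases of the EGLN family mark the alpha subunit, and the VHL ubiquitin ligase has it destroyed. When oxygen falls, the subunit lasts longer and the factor switches on genes for glucose uptake, glycolysis, acid export, vessel growth and matrix building, among them EGLN3 itself. In ductal carcinoma in situ, tumour cells fill milk ducts away from blood vessels, and HIF targets such as CA9 are known there as markers of poorly oxygenated regions. HIF activity is set mostly at the protein level, which these data do not measure.

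MCF10DCIS.com, derived from MCF10A human breast epithelium, models ductal carcinoma in situ. Flasks received 500000 cells and, after 6 h, crystals to 0.1 mg/mL. How long the cells then stayed with the crystals is not stated. The groups were COM (calcium oxalate monohydrate plates), DB (dumbbells), SPH (spheres), TK (thick bipyramids) and TN (thin bipyramids), the last 4 being calcium oxalate dihydrate, each with 4 libraries, and untreated Control with 7 libraries. All groups share the 1 cell line, and the labels do not tell whether each library is a culture of its own. The p-values therefore measure the spread between these libraries, which may be technical.

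Total counts ran from 13115649 to 38672448 per library, with a median of 19251210. By serial number the libraries form set 1 (numbers 1 to 10), set 2 (11 to 22) and set 3 (23 to 27). All 4 TK libraries and Controls C to F lie in set 2, Controls A and B in set 1 and Control G in set 3. Each other form has libraries A and B in set 1, C in set 2 and D in set 3. Library set was a term in the model behind every test given below, unless stated. Fragments of TN C averaged 297 nt, against 197.6 to 243.2 nt in the other set 2 libraries and 257.8 to 319.1 nt in set 1, so its set is uncertain. All 8 epithelial and basal markers of the line passed the filter, and their summed level was 7651 to 12986 CPM over all libraries. TN B stood apart by transcripts of other tissues: it held 658 CPM of ALB (serum albumin) and 58.5 CPM of LYZ (lysozyme), where the next highest libraries had 8.81 and 2.03 CPM. The sum of 7 liver genes was 80.1 to 1156 CPM in TN libraries, against 74.7 to 170.2 CPM in controls. The sum of 6 immune genes was 8.33 to 71.5 CPM in TN libraries, against 7.97 to 21.4 CPM in controls. In TK the epithelial sum was 7651 to 8424 CPM, against 8674 to 10936 CPM in controls. The TK liver sum was 49.6 to 64.9 CPM, and neither sum overlapped the controls. Outside TN B the liver sum was mostly SERPINA1, which had at least 46.5 CPM in every library. No other liver gene passed 8.81 CPM (ALB) there. The part of these sums in the TK results was not tested. Fibroblast genes summed to 8.42 to 14.8 CPM and endothelial genes to 2.17 to 15.1 CPM over all libraries. The leukocyte gene PTPRC was at 0 in 20 of 27 libraries and the fibroblast gene DCN at 0 in 24. Without TN B, TN changed the same numbers of members as with it, 3 higher and 10 lower. In bulk RNA, fewer cells of a kind and less RNA per cell cannot be told apart.

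Promoter windows of 5 members are shown first, because HIF binds the core hypoxia response element, spelled ACGTG or GCGTG. RefSeq promoter windows on GRCh38.p14, from 250 bases before to 50 after a RefSeq start of each gene, were matched for 34 of the 39 members. That start can differ from the gene bounds given below. The EGLN3 window lies inside the gene annotated from 33924231 to 34462774 on the minus strand. The P4HA2 window lies inside the gene annotated from 132191838 to 132295315 on the minus strand. Neither window covers the start of the annotated gene, where motifs were not searched for. Both motifs were searched on both strands, and the palindrome CACGTG counts as ACGTG on each strand. At least 1 motif lay in 25 of the 34 member windows (73.5%), where 48.4% of 35116 promoter windows of the same length hold one. The members were chosen as glycolytic enzymes and known HIF targets or regulators, and the 35116 windows were not limited to expressed genes. The shares are therefore a description only. ACGTG alone was in 44.1% of the member windows, against 21.4% of all windows, and GCGTG in 44.1%, against 36.5%. For the 16 glycolytic enzymes the share with either motif was 68.8%, and for the 18 other members matched it was 77.8%. A match is a string of letters and not a measured binding site. Below, capitals mark each match, which reads CACGT where ACGTG lies on the other strand. HK2 and P4HA1 are shown as genes lower with both bipyramids, CA9 as the classical hypoxia marker, and EGLN3 and P4HA2 as called genes whose windows hold neither motif.
HK2, chr2:74833877-74834176, plus strand: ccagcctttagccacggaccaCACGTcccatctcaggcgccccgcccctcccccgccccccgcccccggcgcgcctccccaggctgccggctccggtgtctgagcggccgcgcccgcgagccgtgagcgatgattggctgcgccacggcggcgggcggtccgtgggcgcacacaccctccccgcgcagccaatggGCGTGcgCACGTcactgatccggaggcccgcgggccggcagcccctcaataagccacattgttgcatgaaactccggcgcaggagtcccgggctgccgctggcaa
P4HA1, chr10:73096817-73097116, minus strand: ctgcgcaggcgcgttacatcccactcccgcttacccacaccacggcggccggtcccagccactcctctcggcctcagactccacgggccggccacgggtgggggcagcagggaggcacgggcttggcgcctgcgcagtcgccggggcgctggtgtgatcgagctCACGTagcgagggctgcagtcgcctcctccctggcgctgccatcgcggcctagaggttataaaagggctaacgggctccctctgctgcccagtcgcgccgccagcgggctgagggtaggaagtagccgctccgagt
CA9, chr9:35673678-35673977, plus strand: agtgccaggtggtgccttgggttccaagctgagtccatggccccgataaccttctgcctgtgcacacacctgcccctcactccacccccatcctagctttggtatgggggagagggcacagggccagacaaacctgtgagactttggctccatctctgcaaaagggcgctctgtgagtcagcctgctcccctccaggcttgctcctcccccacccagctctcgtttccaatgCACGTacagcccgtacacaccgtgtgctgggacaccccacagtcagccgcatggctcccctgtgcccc
EGLN3, chr14:33951025-33951324, minus strand: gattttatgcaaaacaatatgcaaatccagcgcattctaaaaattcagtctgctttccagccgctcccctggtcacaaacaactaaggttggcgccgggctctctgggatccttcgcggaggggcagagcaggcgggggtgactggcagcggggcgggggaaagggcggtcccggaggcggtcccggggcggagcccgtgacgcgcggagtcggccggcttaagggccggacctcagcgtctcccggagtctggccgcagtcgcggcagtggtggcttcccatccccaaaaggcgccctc
P4HA2, chr5:132227042-132227341, minus strand: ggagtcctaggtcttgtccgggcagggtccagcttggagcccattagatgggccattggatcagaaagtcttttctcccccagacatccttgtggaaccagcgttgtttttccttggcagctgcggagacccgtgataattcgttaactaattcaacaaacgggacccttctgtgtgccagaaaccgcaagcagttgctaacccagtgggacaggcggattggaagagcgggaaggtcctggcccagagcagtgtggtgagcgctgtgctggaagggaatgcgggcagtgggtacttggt

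Relative to the RefSeq start, the HK2 window held ACGTG on the other strand at -229 and -48 and GCGTG at -55. In P4HA1 the single match lay at -86, and in CA9 at -18. The window for LDHA, which is not printed, held 5 matches to ACGTG and 1 to GCGTG.

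In untreated cells the module spanned a wide range of levels. On the scale of the authors' TPM, which allows for transcript length, GAPDH averaged 6120 ± 643 TPM (SD, n = 7), ENO1 3324 ± 222, ALDOA 1672 ± 152 and PKM 1587 ± 126. The 16 enzymes summed to 15683 TPM, and each of the other roles summed to between 60.1 and 137.8 TPM. HIF1A, at 108 ± 12.4 TPM, was the highest of the other members. Its control libraries overlapped those of HK1 (94.4 ± 6.72 TPM) but not those of CA12 (80.2 ± 7.20 TPM), which overlapped HK1, PFKL and SLC2A1. Both classical hypoxia markers were low: CA9 stood at 18.9 ± 3.90 TPM and EGLN3 at 1.31 ± 0.240 TPM. SLC2A3 was at 0 to 0.04 TPM.

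**Figure D1:**
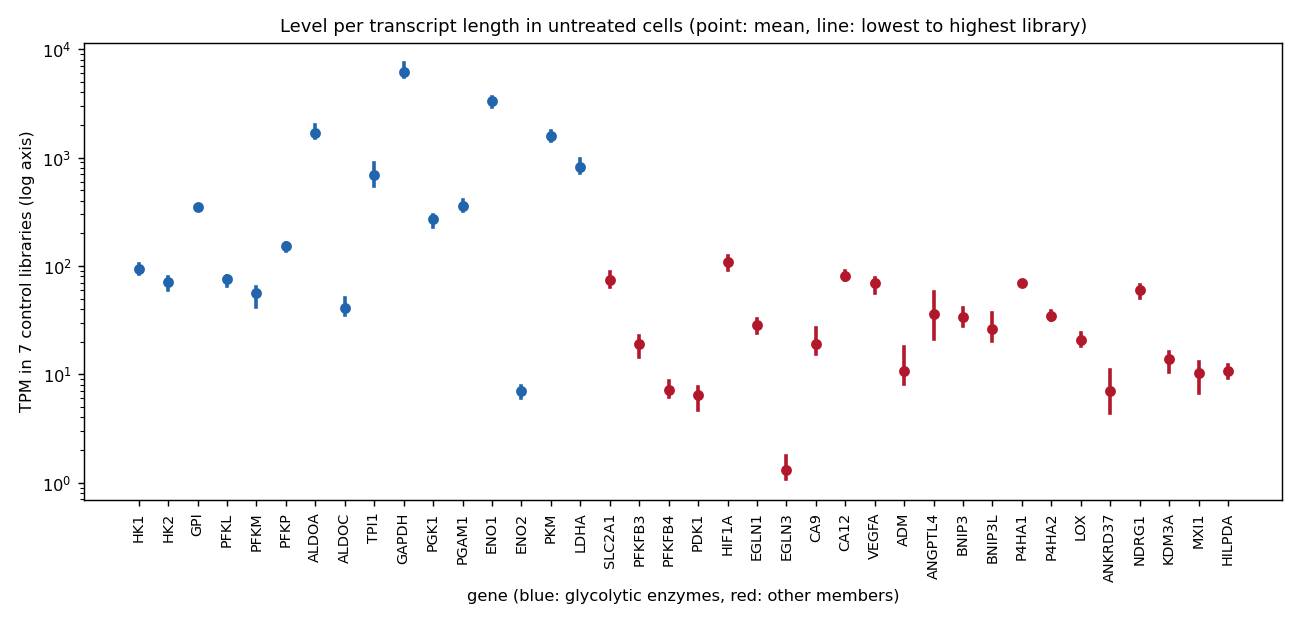
Level per transcript length (TPM, logarithmic axis) of 38 members in the 7 untreated libraries, grouped by role along the horizontal axis; points are means and lines run from the lowest to the highest library. GAPDH lies at 6120 TPM and EGLN3 at 1.31 TPM.

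Crystal forms changed some hypoxia genes in both directions, and edgeR called no glycolytic enzyme higher with any form. HIF1A rose with 4 of the 5 forms, SLC2A1 and VEGFA with 3, while EGLN3 fell with COM, DB and TN and KDM3A with COM, TK and TN. The bipyramids TK and TN both lowered P4HA1, P4HA2, NDRG1, CA12, ALDOC and HK2. Calls are those of edgeR's quasi-likelihood test with a p, adjusted by Benjamini and Hochberg over the 16173 genes, under 0.05. The same 7 controls serve every form. With COM, 3 members were called higher and 5 lower of 38, where 3.94% and 2.42% of all genes tested were called. With DB, 2 were higher and 9 lower (all genes 5.92% and 4.10%). With TK, 3 were higher and 7 lower (all genes 8.04% and 7.33%), and with TN 3 were higher and 10 lower (all genes 6.84% and 4.88%).

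SPH changed no member. By edgeR 0 of 38 were called higher (all genes 0.0804%) and 0 lower (all genes 0.0309%), 4 had an unadjusted p under 0.05 (1 higher, 3 lower), and DESeq2 also called 0. The widest SPH change, ANKRD37, was -0.53 on the log2 scale (95% interval -1.13 to 0.07). Changes were small: the median size over the 38 members was 0.15 on the log2 scale with COM, 0.19 with DB, 0.09 with SPH, 0.17 with TK and 0.14 with TN. Over the 5 forms, 21 members were called with at least 1 form (all genes 28.4%) and 17 with none. A joint test over the 6 groups called 18 of 38 members (all genes 23.2%), and one over the 5 forms alone called 14 (all genes 16.3%). EGLN3, VEGFA, P4HA2, NDRG1, ALDOC and HK2 were among the 14. HIF1A, SLC2A1, KDM3A, CA12 and P4HA1 were not (adjusted p = 0.178, 0.216, 0.121, 0.0844 and 0.0512, joint F-test in edgeR). For these 5 genes the joint test called no difference between forms, although the calls against controls vary by form.

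**Figure D2:**
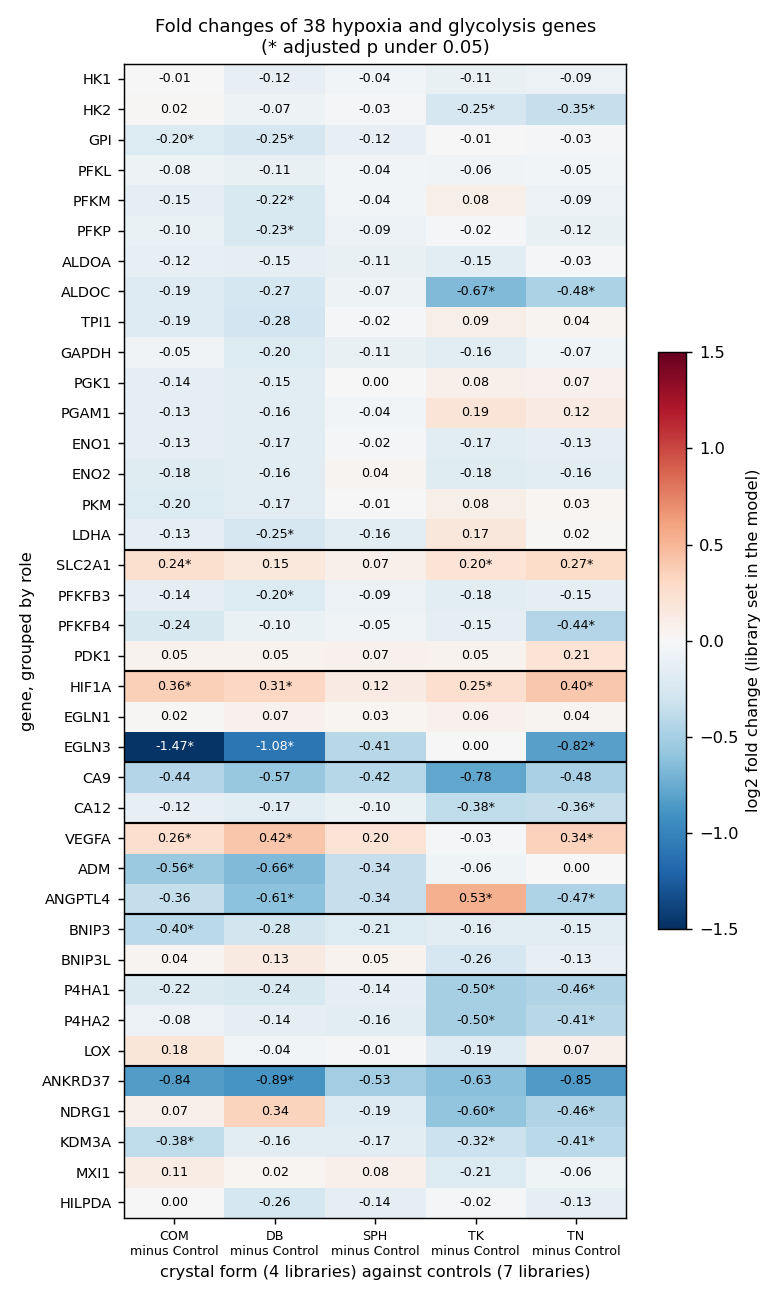
Log2 fold change of each of the 38 members (rows, grouped by role, glycolytic enzymes at the top) for each crystal form against controls (columns), with library set in the model; blue is lower, red is higher and an asterisk marks an adjusted p under 0.05. EGLN3 reaches -1.47 with COM, and none of the 16 enzymes in the top block carries an asterisk on a positive value.

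EGLN3, the prolyl hydroxylase that is itself an HIF target, changed most. It lies on chromosome 14 at 33924231 to 34462774 (GENCODE 29 on GRCh38, minus strand). Its level was 0.930, 0.388, 1.23 and 0.478 CPM in COM libraries A to D, 0.927, 1.28, 1.03 and 0.898 CPM in DB, 1.82, 1.996, 1.40 and 1.38 CPM in SPH, 2.79, 1.93, 2.35 and 2.24 CPM in TK and 1.25, 1.44, 1.14 and 1.18 CPM in TN. The controls ran from 1.73 to 2.54 CPM with a median of 2.31. Every COM, DB and TN library lay below every control, whereas SPH and TK libraries overlapped the controls. The log2 fold change was -1.47 with COM (SE 0.22, adjusted p = 0.000134, edgeR), -1.08 with DB (SE 0.21, adjusted p = 0.00217) and -0.82 with TN (SE 0.21, adjusted p = 0.0115). With SPH it was -0.41 (95% interval -0.84 to 0.02) and with TK 0.00 (-0.45 to 0.45). Within sets 1, 2 and 3 the change with COM was -1.74, -0.90 and -1.85. These levels rest on 5 counts in COM B and at most 79, in Control A. Counts on a processed copy of the gene amounted to at most 16.7% of the 2 together, and the TN call was lost without TN A (adjusted p = 0.05045).

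HIF1A, which encodes the oxygen-regulated alpha subunit (chromosome 14, 61695513 to 61748259, plus strand), moved the other way. Libraries A to D gave 460.4, 490.3, 362 and 365 CPM with COM and 427, 475, 351 and 366 CPM with DB. SPH gave 351, 394, 322 and 348 CPM, TK 349.7, 373, 369.7 and 370.0 CPM and TN 533, 362, 455 and 369 CPM. Controls ran from 277 to 361 CPM with a median of 326. All COM and TN libraries lay above all controls, though C and D of COM and B of TN only just, and DB, SPH and TK overlapped them. HIF1A rose by 0.40 on the log2 scale with TN (SE 0.08, adjusted p = 0.00245, edgeR), 0.36 with COM (SE 0.09, adjusted p = 0.0104), 0.31 with DB (SE 0.09, adjusted p = 0.0211) and 0.25 with TK (SE 0.09, adjusted p = 0.0474). With SPH the change was 0.12 (95% interval -0.05 to 0.30). The TK call was the least firm: it was lost in 19 of the 27 fits that left out 1 library each, and without the set term (adjusted p = 0.194). The COM call was lost without COM B (adjusted p = 0.05434), and the DB call without Control A, DB B or DB D (adjusted p up to 0.08431). EGLN1, the main oxygen sensor, differed from controls by 0.02 to 0.07 with the 5 forms, none called.

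Glycolytic enzymes were called by edgeR in few cases, all downward. With COM 1 of 16 was called, GPI, which converts glucose 6-phosphate to fructose 6-phosphate. With DB 4 were called: GPI, 2 of the 3 phosphofructokinase genes, PFKM and PFKP, and LDHA, which makes lactate. TK and TN each lowered 2, the aldolase ALDOC and the hexokinase HK2. HK1, PFKL, ALDOA, TPI1, GAPDH, PGK1, PGAM1, ENO1, ENO2 and PKM were called with no form by edgeR. DESeq2 did call PGAM1 higher with TK (0.20, adjusted p = 0.0396), where the edgeR change was 0.19. It also called HK1 and TPI1 lower with DB (adjusted p = 0.0384 and 0.0468, DESeq2). With DB all 16 fold changes were below 0, with a median of -0.17 on the log2 scale, and with COM 15 of 16 were below 0, with a median of -0.13. Over all genes the median was -0.00 with DB and -0.01 with COM, and 8220 of 16173 fell below 0 with DB and 8288 with COM.

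ALDOC, on chromosome 17 at 28573115 to 28577264 (minus strand), had 31.1, 24.3, 27.3 and 29.05 CPM in TK libraries A to D and 29.8, 32.7, 43.0 and 31.2 CPM in TN, against 38.3 to 63.1 CPM in controls (median 42.1). The TK libraries lay below every control, and TN C lay among the controls. The log2 change was -0.67 with TK (SE 0.14, adjusted p = 0.00165, edgeR) and -0.48 with TN (SE 0.13, adjusted p = 0.0147). Within set 2 the TK change was -0.54. The TN change by set was -0.78 (set 1), 0.08 (set 2) and -0.86 (set 3), and its call was lost without Control A, TN A or TN D (adjusted p up to 0.09399).

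HK2, the inducible hexokinase that traps glucose in the cell (chromosome 2, 74833981 to 74893359, plus strand), had 255, 265, 259 and 266 CPM in TK and 210.2, 210.8, 262 and 299 CPM in TN, against 293 to 333 CPM in controls (median 309). TK lay below all controls and TN overlapped them through TN D. The change was -0.25 with TK (SE 0.07, adjusted p = 0.0167, edgeR) and -0.35 with TN (SE 0.07, adjusted p = 0.00181). Leaving out TK A or TK C ended the TK call (adjusted p up to 0.06434).

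LDHA had 1112, 1155, 1024 and 902 CPM in DB libraries A to D, against 1156 to 1247 CPM in controls (median 1216). There was no overlap, but only just: DB B had 1155.23 CPM and Control D 1155.57 CPM. The change was -0.25 (SE 0.07, adjusted p = 0.0286, edgeR), and it was lost without the set term (adjusted p = 0.141) and without Control F, Control G, DB A or DB D (adjusted p up to 0.1306). LDHA was called with no other form, where it had 1244, 1128, 1078 and 1098 CPM (COM), 1194, 1165, 924 and 1199 CPM (SPH), 1399, 1239, 1369 and 1297 CPM (TK) and 1547, 1299, 1134 and 1097 CPM (TN). GAPDH, a common reference transcript, had 6604, 5366, 4956 and 4786 CPM in COM, 4667, 5249, 4147 and 5440 CPM in DB and 6113, 5453, 4411 and 4907 CPM in SPH. TK gave 4770, 4114, 4725 and 4231 CPM and TN 5776, 5417, 5295 and 4869 CPM, against 4739 to 6845 CPM in controls (median 5076). Every form overlapped the GAPDH controls, its log2 changes ran from -0.20 to -0.05, and none was called.

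GPI averaged 498 ± 27.6 CPM with COM and 479 ± 21.3 CPM with DB, against 563 ± 33.8 CPM in controls. The DB libraries lay below all controls and COM A overlapped them by a narrow margin. The changes were -0.20 (SE 0.06, adjusted p = 0.0437, edgeR) and -0.25 (SE 0.06, adjusted p = 0.00959). The COM call was lost without the set term (adjusted p = 0.155) and without any of 8 single libraries (adjusted p up to 0.1228): each COM library, Controls A, D and G, and DB B. With DB, the call was lost without DB A (adjusted p = 0.05267). PFKM with DB averaged 93.3 ± 14.8 CPM, against 113 ± 10.1 CPM in controls (-0.22, adjusted p = 0.0204, edgeR), and PFKP averaged 260 ± 33.1 CPM, against 298 ± 16.997 CPM (-0.23, adjusted p = 0.0336, edgeR). Both overlapped the controls, and both calls were lost with fragment length as a covariate (adjusted p = 0.1142 and 0.09904).

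In glucose entry and flux control the main transporter rose and 2 flux regulators fell, each with some forms. SLC2A1, the main glucose transporter GLUT1 (chromosome 1, 42925375 to 42959176, minus strand), had 239, 250.02, 179 and 219 CPM in COM libraries A to D and 245, 226, 211 and 215 CPM in TN. TK had 193, 169, 191 and 173 CPM, DB 221, 218, 167 and 229 CPM and SPH 203, 219.5, 170.2 and 193 CPM, against 147 to 203 CPM in controls (median 174). TN lay above all controls, and the other forms overlapped them. The log2 change was 0.27 with TN (SE 0.06, adjusted p = 0.00623, edgeR), 0.24 with COM (SE 0.06, adjusted p = 0.0208) and 0.20 with TK (SE 0.07, adjusted p = 0.0395), and with DB it was 0.15 (95% interval 0.02 to 0.29) and with SPH 0.07 (-0.06 to 0.21). Controls themselves differed by set, at 157 CPM in set 2 and 196 CPM in set 1. Without the set term the TK change was 0.05 (adjusted p = 0.763) and the COM call was lost (adjusted p = 0.065). The COM call was also lost without COM A, COM B, Control C or Control F, the TK call without any of 7 libraries (COM C, Controls B, C, E and F, TK A and TK C), and the TN call without TN C (adjusted p = 0.06935).

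PFKFB4, which sets the level of the glycolytic activator fructose 2,6-bisphosphate, averaged 13.1 ± 1.32 CPM with TN, against 17.2 ± 1.34 CPM in controls, with no overlap. Its change was -0.44 (SE 0.09, adjusted p = 0.00277, edgeR). The related PFKFB3 was called lower with DB, at 46.9 ± 2.78 CPM against 56.1 ± 6.60 CPM in controls (-0.20, adjusted p = 0.0426, edgeR), a call lost in 16 of 27 fits that left out 1 library. PDK1, a kinase that inhibits pyruvate dehydrogenase, differed by 0.05 to 0.21 and was not called.

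The carbonic anhydrases, which handle acid at the cell surface, had negative fold changes with every form. CA12 averaged 230.4 ± 6.68 CPM with TK and 216 ± 41.2 CPM with TN, against 286 ± 16.5 CPM in controls. TK libraries lay below all controls, and TN overlapped them through TN C. The change was -0.38 with TK (SE 0.09, adjusted p = 0.00399, edgeR) and -0.36 with TN (SE 0.08, adjusted p = 0.00647). By set, the CA12 change with TN was -0.63 in set 1 and -0.09 in set 2, where TN C is the single TN library. CA9, on chromosome 9 at 35673856 to 35681159 (plus strand), was called with none. It had 22.3, 10.01, 8.13 and 8.65 CPM in COM, 6.46, 9.41, 13.2 and 16.1 CPM in DB, 13.8, 16.2, 8.53 and 11.5 CPM in SPH, 11.6, 6.39, 10.2 and 10.1 CPM in TK and 12.6, 11.9, 14.6 and 8.46 CPM in TN. The controls ran from 13.4 to 24.7 CPM with a median of 16.3, so that TK lay below every control and the other forms overlapped them. The log2 changes ran from -0.78 with TK (95% interval -1.35 to -0.22, adjusted p = 0.0542, edgeR) to -0.42 with SPH. Set against the controls of set 2 alone, the TK change was -0.85 (SE 0.23, adjusted p = 0.0219, where 12.5% of all genes were called); without the set term the adjusted p was 0.038. This comparison within set 2 called 11 members with TK, against 10 with the set term, and 8 were shared. It added CA9, PFKFB3 and ANKRD37, and it lost HIF1A (adjusted p = 0.126, edgeR) and ANGPTL4 (adjusted p = 0.071).

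The 3 secreted signals each followed a pattern of their own. VEGFA, the growth factor of blood vessels (chromosome 6, 43770184 to 43786487, plus strand), had 151, 162, 171 and 172 CPM in COM libraries A to D, 177, 165, 207 and 186 CPM in DB and 174, 175, 164 and 178 CPM in TN. SPH had 126, 138, 196 and 178 CPM and TK 148, 157, 147 and 144 CPM, against 113 to 162 CPM in controls (median 152). All DB and TN libraries lay above all controls. VEGFA rose by 0.42 on the log2 scale with DB (SE 0.07, adjusted p = 0.00069, edgeR), 0.34 with TN (SE 0.07, adjusted p = 0.00313) and 0.26 with COM (SE 0.07, adjusted p = 0.035), and the change was 0.20 with SPH (95% interval 0.05 to 0.35, not called) and -0.03 with TK (-0.19 to 0.12). Controls of set 2 averaged 155 CPM, where those of set 1 averaged 119 CPM. Without the set term the COM and TN calls were lost (adjusted p = 0.345 and 0.136), and the COM call was also lost in 11 of the 27 fits that left out 1 library.

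ADM, which encodes the vasodilator adrenomedullin, had 6.76, 5.98, 5.24 and 7.22 CPM in COM and 5.76, 5.36, 6.22 and 6.13 CPM in DB, against 7.56 to 17.1 CPM in controls (median 9.19). Neither form overlapped the controls. The change was -0.56 with COM (SE 0.16, adjusted p = 0.0326, edgeR) and -0.66 with DB (SE 0.16, adjusted p = 0.00836). The COM call was lost without COM B, COM C or Control G (adjusted p up to 0.2191), and the DB call with fragment length as a covariate (adjusted p = 0.0755). With TN the change was -0.00 (95% interval -0.31 to 0.31).

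ANGPTL4, a secreted inhibitor of lipoprotein lipase, was the one member called in opposite directions. It had 54.4, 43.0, 52.2 and 38.9 CPM in TK, 47.5, 45.2, 18.6 and 52.0 CPM in DB and 48.8, 52.2, 26.6 and 46.9 CPM in TN, against 26.7 to 79.7 CPM in controls (median 51.0). All forms overlapped the controls, which themselves differed by set: those of set 2 averaged 34.5 CPM and those of set 1 averaged 61.4 CPM. With the set in the model the change was 0.53 with TK (SE 0.14, adjusted p = 0.0127, edgeR), -0.61 with DB (SE 0.14, adjusted p = 0.00782) and -0.47 with TN (SE 0.14, adjusted p = 0.03). Without the set term none was called: -0.05 with TK (adjusted p = 0.933), -0.25 with DB (adjusted p = 0.693) and -0.16 with TN (adjusted p = 0.825). The TK call was lost without TK A (adjusted p = 0.05373), and the TN call without Control A, Control G, TN A or TN D (adjusted p up to 0.0991).

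The 2 catalytic subunits of collagen prolyl 4-hydroxylases among the members fell with both bipyramids. P4HA1 (chromosome 10, 73007217 to 73096974, minus strand) had 103, 93.0, 106 and 97.7 CPM in TK libraries A to D and 99.5, 95.4, 125 and 101 CPM in TN, against 131 to 160.1 CPM in controls (median 143). No TK or TN library reached the controls. The change was -0.50 with TK (SE 0.09, adjusted p = 0.000765, edgeR) and -0.46 with TN (SE 0.09, adjusted p = 0.00164). By set, the P4HA1 change with TN was -0.67 in set 1 and -0.15 in set 2, which holds TN C alone. P4HA2 (chromosome 5, 132191838 to 132295315, minus strand) had 38.6, 34.3, 42.0 and 34.9 CPM in TK and 43.4, 43.9, 40.7 and 57.8 CPM in TN, against 50.1 to 67.9 CPM in controls (median 55.0). TK lay below all controls, and TN D lay among them. The change was -0.50 with TK (SE 0.09, adjusted p = 0.000424, edgeR) and -0.41 with TN (SE 0.08, adjusted p = 0.00196), the TN call being lost without the set term (adjusted p = 0.101). With COM, DB and SPH the changes were -0.24 to -0.14 for P4HA1 and -0.16 to -0.08 for P4HA2, none called. LOX, which cross-links collagen, was not called with any form.

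NDRG1, a stress-responsive gene long known as an HIF target, followed the same bipyramid forms. It had 96.8, 70.3, 87.0 and 80.0 CPM in TK and 76.5, 83.7, 121 and 103 CPM in TN, against 114 to 145 CPM in controls (median 132). TK lay below all controls and TN C among them. The change was -0.60 with TK (SE 0.13, adjusted p = 0.00357, edgeR) and -0.46 with TN (SE 0.13, adjusted p = 0.0215). By set, the TN change was -0.67 in set 1 and -0.08 in set 2, where TN C is the single TN library. With DB its change was 0.34 (95% interval 0.07 to 0.60, adjusted p = 0.0948), not called. The TN call was lost without the set term (adjusted p = 0.0609) and without TN A or TN B (adjusted p up to 0.1288).

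KDM3A, an oxygen-dependent histone demethylase, had 34.6, 36.9, 32.8 and 38.04 CPM in COM, 35.7, 34.7, 31.3 and 36.1 CPM in TK and 34.0, 32.9, 37.6 and 35.2 CPM in TN, against 39.1 to 52.8 CPM in controls (median 45.6). None of these 3 forms overlapped the controls. The change was -0.38 with COM (SE 0.09, adjusted p = 0.00679, edgeR), -0.32 with TK (SE 0.09, adjusted p = 0.0155) and -0.41 with TN (SE 0.09, adjusted p = 0.0026). Leaving out TK C ended the TK call (adjusted p = 0.08437).

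BNIP3, a receptor for the removal of mitochondria, had 49.8, 36.0, 39.8 and 41.3 CPM in COM, against 48.2 to 63.0 CPM in controls (median 53.7), with overlap through COM A. Its change was -0.40 (SE 0.11, adjusted p = 0.0197, edgeR), lost without COM B or COM C (adjusted p up to 0.1004). Reads on its 39 named copies made up 0.34% to 2.26% of the counts on gene and copies. The related BNIP3L was not called. ANKRD37 had 1.49, 1.22, 2.17 and 1.64 CPM in DB, against 1.76 to 5.35 CPM in controls (median 2.51), with overlap through DB C. The DB change was -0.89 (SE 0.29, adjusted p = 0.0468, edgeR), and that call was lost in 20 of 27 fits that left out 1 library. MXI1, a MAX partner that opposes MYC, and HILPDA, a lipid droplet protein, were called with no form.

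**Figure D3:**
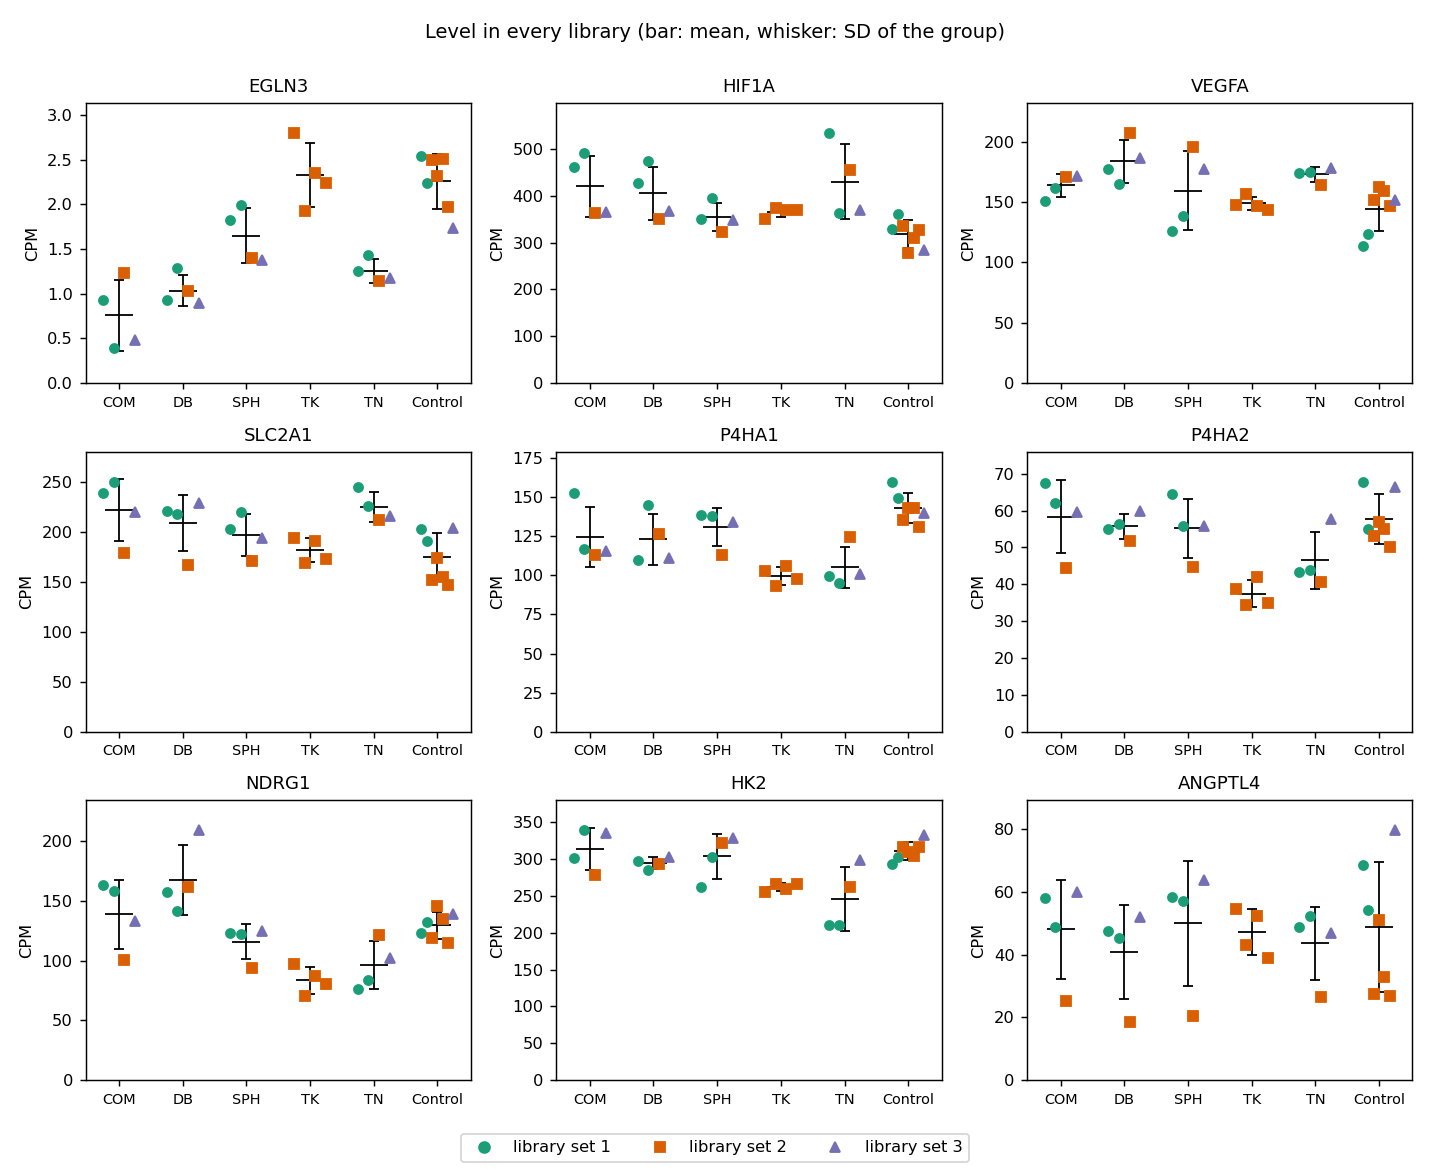
Level in CPM of 9 members in every library, by group with Control at the right; colour and shape give the library set, bars the group mean and whiskers the SD. EGLN3 lies below every control in all COM, DB and TN libraries, P4HA1 in all TK and TN libraries, and the ANGPTL4 controls of set 2 average 34.5 CPM where those of set 1 average 61.4 CPM.

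Set beside each other, the enzymes and the other hypoxia genes had medians of the same sign in every form. The median log2 change of the 16 enzymes and the 22 other members measured was -0.13 and -0.10 with COM, -0.17 and -0.15 with DB, -0.04 and -0.12 with SPH, -0.04 and -0.17 with TK and -0.06 and -0.15 with TN. Medians over all genes lay between -0.02 and -0.00. The difference of enzyme and other medians was therefore -0.03, -0.02, 0.08, 0.13 and 0.09 on the log2 scale, which is given as a description with no test. With COM the enzymes ran from -0.20 to 0.02 and the others from -1.47 to 0.36, and with TK the enzymes ran from -0.67 to 0.19 and the others from -0.78 to 0.53. Enzyme calls numbered 9 of 80 gene and form combinations, and calls among the other members 33 of 110, where 8.72% of such combinations were called over all genes. Library by library, the enzyme median minus the other median was 0.05 to 0.13 in TK libraries and 0.01 to 0.27 in TN, against -0.06 to 0.06 in controls, each relative to the mean control of its set. That centring narrows the range of the controls: Control G, alone in its set, is 0 by construction, and Controls A and B mirror each other. In COM it was -0.07 to 0.09, in DB -0.12 to 0.06 and in SPH 0.01 to 0.10.

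**Figure D4:**
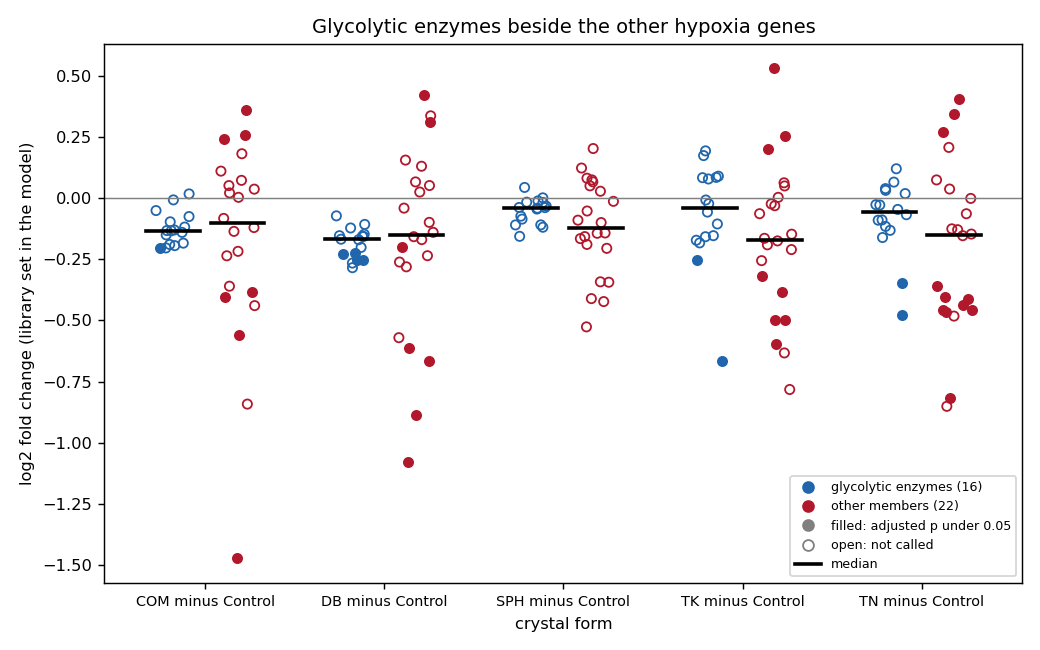
Log2 fold change of the 16 glycolytic enzymes (blue) and the 22 other members measured (red) for each form against controls; filled points passed an adjusted p of 0.05 and black lines are medians. Filled blue points all lie below 0, and the red points run from -1.47 with COM to 0.53 with TK.

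Forms were then set against each other at the same dose, in 10 pairs and 380 tests of members. With p-values adjusted over genes and pairs, 32 tests were called. Of all genes, 1.15% to 11.4% were called, depending on the pair. The monohydrate plates and the dihydrate dumbbells differed in 0 members by edgeR (all genes 1.15%), with 4 at an unadjusted p under 0.05. The widest DB minus COM difference was 0.39 for EGLN3, with a 95% interval of -0.12 to 0.90. Most calls, among members as among all genes, lay in the pairs of a bipyramid form with COM or DB. TK minus COM called 6 members (all genes 9.94%), TK minus DB 8 (11.4%), TN minus COM 3 (4.91%) and TN minus DB 6 (7.50%). NDRG1 was lower in each of these comparisons, from -0.93 in TK minus DB (SE 0.16, adjusted p = 0.00105, edgeR) to -0.53 in TN minus COM (SE 0.14, adjusted p = 0.0298). P4HA2 differed by -0.41 in TK minus COM, by -0.36 in TK minus DB and by -0.33 in TN minus COM.

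Enzymes called between forms went in both directions. LDHA was higher in TK than in DB by 0.43 (SE 0.09, adjusted p = 0.00562, edgeR), than in SPH by 0.33 and than in COM by 0.31, and PGAM1, the phosphoglycerate mutase, was higher in TK than in DB by 0.35 and than in COM by 0.32. PFKM was higher in TK than in DB by 0.31. LDHA, PGAM1 and GPI were also higher in TN than in DB, by 0.27, 0.28 and 0.23. ALDOC was lower in TK than in SPH (-0.59). HK2, at the entry of the pathway, was lower in TN than in COM (-0.36, SE 0.08, adjusted p = 0.00543, edgeR), in SPH (-0.31) and in DB (-0.27). No other enzyme, such as GAPDH, ENO1 or PKM, was called in any of the 10 pairs. EGLN3 was higher in TK than in COM (1.47, SE 0.26, adjusted p = 0.00146, edgeR) and in DB (1.08), and higher in SPH than in COM (1.06).

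Thick and thin bipyramids, which differ by thickness, differed in 2 of 38 members (all genes 1.21%). ANGPTL4 was lower in TN than in TK (-0.99, SE 0.17, adjusted p = 0.00115, edgeR) and VEGFA higher (0.38, SE 0.09, adjusted p = 0.016). EGLN3 differed by -0.82 (95% interval -1.34 to -0.30, adjusted p = 0.0629, edgeR), which missed the threshold. For P4HA1 the TN minus TK difference was 0.04 (-0.18 to 0.27), for NDRG1 0.14 (-0.18 to 0.46) and for HK2 -0.09 (-0.27 to 0.08). Against set 2 controls alone, the TK changes in P4HA1, NDRG1 and HK2 were -0.47, -0.62 and -0.25. Those of TN C, the single TN library in set 2, were -0.15, -0.08 and -0.25. For the 2 called genes, ANGPTL4 and VEGFA, the TK changes against set 2 controls were 0.46 and -0.06. Those of TN C were -0.36 and 0.08. In set 1 the VEGFA change with TN was 0.56, so the called VEGFA difference rests largely on TN libraries outside set 2. The spheres differed from COM in 1 member (all genes 1.60%), from DB in 1 (1.22%), from TK in 3 (5.18%) and from TN in 2 (2.73%). As TK lies wholly in set 2, where each other form has 1 library, its pairs rest on the set term.

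Members also differed between library sets. Between controls of sets 2 and 1, 10 of 38 members differed, 4 higher (all genes 6.47%) and 6 lower (7.46%). VEGFA, TPI1, PFKFB3 and PFKM were higher, by 0.26 to 0.42, and ANGPTL4, BNIP3L, LOX, GAPDH, SLC2A1 and ALDOA were lower, with changes from -0.85 for ANGPTL4 to -0.30 for ALDOA. Control G, the single set 3 control, whose spread is taken from the other libraries, differed from set 1 in 0 members by edgeR (all genes 0.0371%, 3 at an unadjusted p under 0.05). Between sets 2 and 1 the effects of COM, DB and SPH differed in 0 members each by edgeR (all genes 0.0247%, 0.0866% and 0%), with 6, 0 and 5 at an unadjusted p under 0.05. Each of these forms has 1 library in set 2. For TN, 4 members differed by edgeR (all genes 5.81%), namely ALDOC, BNIP3L, LOX and VEGFA, and 14 had an unadjusted p under 0.05. TN too has 1 library in set 2, which the test assumes to vary like the others.

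Across the 27 libraries, after centring within sets, pairs of enzymes had a higher median correlation than pairs of other members. Pearson's r of log2 CPM had a median of 0.40 over 120 pairs of enzymes (52 above 0.5), 0.16 over 352 pairs of an enzyme and another member and 0.09 over 231 pairs of other members. These values describe libraries that share groups, depth scaling and sets. TPI1 and PKM reached 0.91 and ALDOA and GAPDH 0.90. A second cluster crossed the roles: P4HA1 had r of 0.90 with CA12, 0.86 with ALDOC and 0.82 with P4HA2. HIF1A and EGLN3 had an r of -0.61, and VEGFA had -0.66 with EGLN3 and -0.68 with GPI. EGLN3 had the smallest joint p of the members. Among 10568 candidate genes the 5 most like it over the 27 libraries were BANP (r of 0.88), CCDC77 (0.85), CHORDC1 (0.84), DNAJA1 (0.83) and KIFC1 (0.82).

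**Figure D5:**
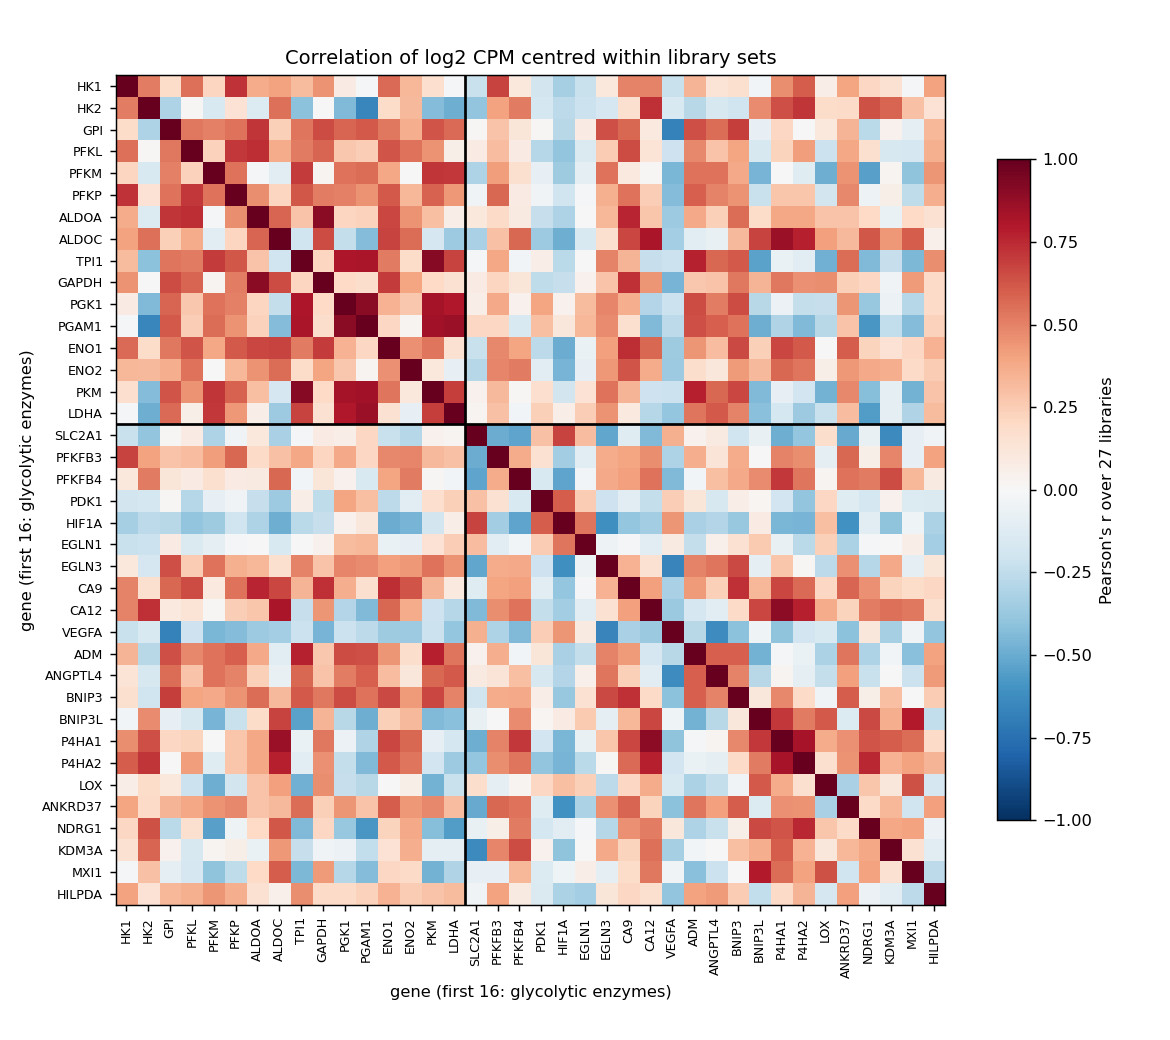
Pearson's r between members over 27 libraries, from log2 CPM centred within library sets; the first 16 genes are the glycolytic enzymes and lines divide them from the others. Red blocks hold TPI1, PGK1, PGAM1, PKM and LDHA, and ALDOC with CA12, P4HA1 and P4HA2; HIF1A and EGLN3 are blue at -0.61.

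Neighbouring genes of the same pathways were counted from 3 further lists. Of 13 HIF regulators measured, COM raised 1 (VHL, 0.22), DB raised 1 (SIAH1, 0.29), TN raised 2 (SIAH1, 0.30, and CUL2, 0.27), and TK lowered 1 (ARNT2, -0.42). Of 25 further hypoxia targets, COM raised 3 and lowered 3, DB raised 5 and lowered 3, TK raised 1 and lowered 5, and TN raised 1 and lowered 6. Of 25 further genes of glycolysis and pyruvate use, COM raised 2, DB 3, TK 3 and TN 2, and TN lowered 1 (PDK4, -0.46). SPH changed 0 genes of each list by edgeR, with 0, 6 and 4 at an unadjusted p under 0.05 in the order given. The shares of all genes called are those given above for each form. List medians lay between -0.12 and 0.10 on the log2 scale.

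STC2, a secreted glycoprotein that also responds to nutrient stress, rose most among these. It averaged 131 ± 31.3 CPM with COM, 103 ± 29.6 with DB, 175 ± 11.5 with TK and 146 ± 14.2 with TN, against 79.3 ± 41.8 CPM in controls, whose set 2 libraries averaged 112 CPM. The log2 change was 1.48 with TN (SE 0.20, adjusted p = 2.89e-05, edgeR), 1.23 with COM (SE 0.19, adjusted p = 0.00022), 0.87 with DB (SE 0.19, adjusted p = 0.00589) and 0.87 with TK (SE 0.19, adjusted p = 0.00273). Without the set term the COM, DB and TN calls were lost (adjusted p = 0.23, 0.533 and 0.114). SLC2A6, a further glucose transporter of the same family as SLC2A1, averaged 25.3 ± 2.42 CPM with COM, 25.5 ± 3.94 with DB, 25.1 ± 1.38 with TK and 28.4 ± 2.57 with TN, against 18.9 ± 2.28 CPM in controls. None of these 4 forms overlapped the controls, and the changes ran from 0.36 with COM (adjusted p = 0.0112, edgeR) to 0.55 with TN (adjusted p = 0.000179).

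JMJD6, a dioxygenase of the JmjC family, fell with the same 4 forms, with changes of -0.51 with TN (SE 0.08, adjusted p = 0.000138, edgeR) to -0.34 with TK (adjusted p = 0.00443). It averaged 28.8 ± 2.44 CPM with TN and 34.6 ± 1.88 CPM with TK, against 42.2 ± 4.001 CPM in controls. STC1, a secreted glycoprotein related to STC2, fell with COM. It averaged 18.5 ± 4.44 CPM with COM and 21.7 ± 4.44 CPM in controls, which overlapped, and the change was -0.43 (SE 0.11, adjusted p = 0.016, edgeR). Without the set term the call was lost (adjusted p = 0.546, edgeR). KDM7A, a histone demethylase, was higher with DB (0.50, SE 0.14, adjusted p = 0.024, edgeR).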

How the data were processed

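RNA was measured by poly(A) sequencing of 27 libraries, and the deposited tables give, per the file headers, RSEM expected counts and TPM for each gene. The submitters' processing notes name Trim Galore, Bowtie2, RSEM and GRCh38, with versions not given in the sources used here. Gene IDs match GENCODE 29. The authors' expected counts were first rounded. The authors' TPM served only to compare levels between genes.

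Genes were filtered with filterByExpr and scaled by TMM, and group means plus a library-set term (serial numbers 1 to 10, 11 to 22 and 23 to 27) were fitted with edgeR 4.0.16 (quasi-likelihood test, R 4.3.3) over all 16173 genes, with Benjamini-Hochberg adjustment at 0.05. CPM uses TMM library sizes. Pairs of forms were adjusted over genes and 10 pairs. DESeq2 1.42.0, size factors by RLE, no filter, no set term, a title-letter block, single sets, fragment length, TN C placed in set 1 and leaving out each library were alternatives, and leaving out TN B and TN C was added after seeing the data. The fit was tested on simulated counts. All 51 pairs of libraries within groups differed beyond counting noise (chi-square divided by its degrees of freedom 2.46 to 70.4). This ratio was 2.46 to 8.33 within TK, 10.7 to 68.7 within the other forms and 3.05 to 70.4 within controls. TK libraries, all of 1 set, thus differed less from each other than those of the other forms, which span the sets.

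Values for every library are given for up to 4 called members per form with the largest change and for HIF1A, CA9, VEGFA, SLC2A1, LDHA and GAPDH. Up to 3 called pathway genes per form with at least 5 CPM are named. Of the pathway lists, 1 gene is not reported here. Members and lists were chosen with earlier results of these data known.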

Additional observations from a re-analysis of the deposited data

Results flagged for a closer look

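In 228 groups of a member's values, 22 held a library far from the rest of its group, by Dixon's ratio of gap to range. Chance flags about 1 in 20 groups, a share that takes no account of library sets, which the groups mix. In 7 of the 22 cases the library was the only one of its set in its group. Set 2 controls averaged 34.5 CPM of ANGPTL4 and 119 CPM of PFKM, against 61.4 and 99.1 CPM in set 1 controls; SPH C and DB C are set 2 libraries. With DB, PFKM was high in DB C (115 CPM, others at most 86.9), PFKP in DB D (309 CPM, others at most 249.5) and PGAM1 in DB B (453 CPM, others at most 414), and PDK1 was low in DB D (22.9 CPM, others at least 27.7). SPH C was low for LDHA (924 CPM), NDRG1 (93.6 CPM) and ANGPTL4 (20.3 CPM) and high for CA12 (291 CPM). SPH A was low for PFKFB3 (44.1 CPM) and EGLN1 (59.5 CPM), and SPH B for MXI1 (13.7 CPM). With TK, HIF1A was low in TK A (349.7 CPM), EGLN1 low in TK B (69.0 CPM) and HILPDA high in TK C (12.1 CPM). COM A was high for CA9 (22.3 CPM) and P4HA1 (153 CPM). Among controls, Control A was high for ALDOA (1573 CPM) and GAPDH (6845 CPM). Control D was high for CA9 (24.7 CPM), ADM (17.1 CPM) and HILPDA (11.7 CPM) and low for LDHA (1156 CPM).

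The effect of TN differed between library sets 2 and 1 for 4 members, by an interaction test in edgeR over all genes, where 5.81% were called. The log2 effect in set 2 minus that in set 1 was 0.86 for ALDOC (adjusted p = 0.0348), 0.71 for BNIP3L (adjusted p = 0.0255), 0.73 for LOX (adjusted p = 0.0129) and -0.47 for VEGFA (adjusted p = 0.0342). TN C is the single TN library in set 2.

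SLC2A3, which failed the filter on low counts, had 249 counts in TN B and at most 4 in any other library. TN B is also the library with 658 CPM of ALB, and the part of such transcripts in this value was not tested.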

How the results depend on the processing

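Of 42 called pairs of a member and a form, 42 kept direction and call with DESeq2 and with RLE size factors, 39 with TN C placed in set 1, 40 without TN B and TN C, 34 with fragment length as a covariate, 32 with no filter and 27 without the set term. A sign turned in 2 cases: ALDOC with TN was 0.0829 in set 2 alone, and ANGPTL4 with TK was -0.0494 without the set term. Without the set term 1 member was higher with COM, 0 with TK, and 4 were lower with DB. The replicate block, by title letter in place of the set, left 17 of the 42 calls: 0 members higher and 2 lower with COM, 1 and 2 with DB, 0 higher with TK and 4 lower with TN. Under this replicate block the enzyme minus other median was 0.0392 with SPH and 0.0808 with TK. Libraries of the same letter had a median correlation of 0.0685 (-0.158 to 0.446, 60 pairs), against -0.0215 for different letters, and 10 of 20 treated libraries correlated best with their own letter. Letters partly follow the sets, so this block and the set term overlap. Not every pair passed 0.1, so letters were not taken as pairs. Set 1 alone gave 0 higher and 0 lower with COM and with DB, 1 higher with TN, and a median difference of 0.0095 with SPH. Set 2 alone gave 0 and 0 with COM, 1 and 0 with DB, 1 lower with TN, and a median difference of 0.0904 with COM. These sets hold fewer libraries. The share of all genes called is not given for the settings named here, nor for the fits that leave out 1 library. A lower count of members can therefore not be told apart from fewer calls over all genes. Fragment length gave 1 higher with DB, 1 higher and 11 lower with TK, and a median difference of 0.2136 with TN. That difference was 0.2663 without TN B and TN C, a setting added after seeing the data. No filter gave 1 lower with SPH. Otherwise the cause was not tested.

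Leaving out 1 library at a time gave 0 (without COM B) to 3 members higher and 2 (without COM B or COM C) to 6 lower with COM. It gave 1 (without Control A, DB B or DB D) to 3 higher and 3 (without DB A) to 11 lower with DB, 0 (without TK A) to 3 higher with TK, and 6 (without TN A) to 11 lower with TN. Members differing among the 5 forms numbered 9 (without COM C or TN A) to 20, and the median difference with SPH was 0.0117 (without SPH C) to 0.0909, with TN 0.0803 to 0.2089 (without TN C), with COM -0.0785 (without COM C) to -0.0111 (without COM A) and with DB -0.0757 (without DB D) to -0.0029 (without Control D). EGLN3 and ANKRD37 rest on few counts, which limits their precision.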
